A study of Mus musculus with 8 samples.

Results

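The genes described here are 10 messages of the bone morphogenetic protein (BMP) and activin branches of TGF-beta signalling: the ligand genes Bmp2, Bmp4, Bmp7, Inhba and Inhbb, the secreted antagonist genes Fst and Grem1, and the BMP-responsive genes Id1, Id3 and Smad6. They were picked by name from the 24421 genes in the expression files, and all 10 were found. RNA came from MCa-P1362, a mouse breast cancer line, whose cells were split by flow sorting on the epithelial surface protein EpCAM. The 4 groups were monoculture EpCAM+, coculture EpCAM+, monoculture EpCAM- and coculture EpCAM-, with 2 libraries each, and all were kept in high-glucose DMEM with serum. Sorted cells were frozen either at once or after further growth and a single passage, and the labels do not say which of these each culture name stands for. All groups derive from this 1 line. Nothing in the labels tells separate cultures from repeat libraries of a group, so p-values cover the spread between libraries alone, and that spread may be technical. Levels are in FPKM, fragments scaled to transcript length and sequencing depth, and can therefore be set side by side between genes.

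BMPs and activins are secreted dimers that bind pairs of serine/threonine kinase receptors. BMP receptors phosphorylate SMAD1, SMAD5 and SMAD9, which switch on the Id genes, encoding inhibitors of basic helix-loop-helix transcription factors, and Smad6, which encodes an inhibitory SMAD that feeds back on BMP receptors. Activin receptors act through SMAD2 and SMAD3; Inhba and Inhbb encode the activin beta A and beta B subunits, follistatin (Fst) binds and neutralises activin, and gremlin (Grem1) binds BMP2, BMP4 and BMP7. In the mammary gland, BMP and activin signals pass between stroma and epithelium during development of the gland.

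RefSeq promoter windows (build GRCm38.p6, 250 bases before to 50 after the start) were held for 6 of the 10 genes: Bmp4, Inhba, Inhbb, Grem1, Id3 and Smad6. Those of Bmp4, Smad6 and Id3 are shown. Bmp4 was the ligand that differed most between the cultures of EpCAM- cells, and Smad6 and Id3 are the BMP-responsive genes with a window. They lie on the minus strand at chr14:46390620-46390919 (Bmp4), on the minus strand at chr9:64022010-64022309 (Smad6) and on the plus strand at chr4:136143572-136143871 (Id3). The gene positions given below are from GENCODE, which starts Id3 further upstream, at 136143497. By that annotation the whole Id3 window lies inside the gene. Capitals mark motifs that SMAD proteins bind, searched on both strands: the GC-rich element GGCGCC, the short element CAGAC, which reads as GTCTG on the other strand, and the palindrome GTCTAGAC, which holds no copy of either. No capitals in the Bmp4 window means only that these letters are not in it.
Bmp4: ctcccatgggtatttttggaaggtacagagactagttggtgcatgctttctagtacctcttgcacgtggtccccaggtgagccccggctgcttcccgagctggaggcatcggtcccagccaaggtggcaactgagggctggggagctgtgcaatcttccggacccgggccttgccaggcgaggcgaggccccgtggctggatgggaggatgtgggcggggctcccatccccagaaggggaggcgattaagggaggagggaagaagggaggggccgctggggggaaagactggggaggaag
Smad6: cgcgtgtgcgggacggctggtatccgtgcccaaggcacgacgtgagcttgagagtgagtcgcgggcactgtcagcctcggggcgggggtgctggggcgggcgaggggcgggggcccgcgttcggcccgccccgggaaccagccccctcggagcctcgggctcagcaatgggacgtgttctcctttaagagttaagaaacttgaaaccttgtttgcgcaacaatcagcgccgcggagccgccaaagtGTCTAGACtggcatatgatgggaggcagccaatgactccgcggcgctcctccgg
Id3: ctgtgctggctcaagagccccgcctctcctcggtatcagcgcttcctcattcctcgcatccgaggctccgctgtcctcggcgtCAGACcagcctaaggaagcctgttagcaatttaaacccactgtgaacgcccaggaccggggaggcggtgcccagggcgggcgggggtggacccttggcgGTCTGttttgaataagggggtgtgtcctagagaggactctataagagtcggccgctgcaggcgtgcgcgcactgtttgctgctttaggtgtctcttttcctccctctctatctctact

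The Smad6 window held 1 copy of GTCTAGAC, a motif added to the search after the sequences had been seen, which 70 of the 32851 promoter windows held (0.213%). The Id3 window held 2 copies of the short element on either strand, which 49.6% of all windows held, and the Grem1 window held 2 copies of it and 1 of the GC-rich element, which 11.9% of all windows held. The Inhba and Inhbb windows held none of the 3. These matches describe letters, not binding.

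The FPKM of a library summed to 387489 to 414612, and read depth is unknown; the low values place the depths within 0.911 to 1.16 times that of monoculture EpCAM+ replicate 1. All 17 epithelial markers reached 1 FPKM in every EpCAM+ library and all 15 mesenchymal markers in every EpCAM- library. This level does not separate the fractions. All 15 mesenchymal markers also reached it in both coculture EpCAM+ libraries, and 6 in both of monoculture EpCAM+. Of the epithelial markers, 4 reached it in both libraries of monoculture EpCAM- and 5 in both of coculture EpCAM-. In monoculture EpCAM+, coculture EpCAM+, monoculture EpCAM- and coculture EpCAM- libraries, the epithelial markers summed to 10213 to 10311, 11090 to 11194, 20.5 to 21.7 and 35.8 to 36.2 FPKM. The mesenchymal markers summed to 22.1 to 22.3, 229 to 229.7, 14495 to 14583 and 13278 to 13334 FPKM in the same order. Coculture EpCAM+ libraries thus held more mesenchymal message than monoculture EpCAM+ libraries. A mesenchymal marker in coculture EpCAM+ libraries stood at a median of 1.73% and 1.70% of its coculture EpCAM- level (range over markers 1.36% to 2.31%), against 0.127% and 0.139% in monoculture (range 0.0814% to 0.472%). Of 6 leukocyte and 5 endothelial markers, Cd68 and Kdr alone passed 1 FPKM in a library, and Adgre1 and Cd3e were at 0 in all 8.

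Inhba was by far the highest ligand message of the 10 in every library, and Bmp2 and Bmp7 were at or near 0. Inhba (beta A; chromosome 13, 16011851 to 16031621) read 529 and 525 FPKM in monoculture EpCAM+, 303 and 309 in coculture EpCAM+, 112 and 116 in monoculture EpCAM-, and 336 and 339 in coculture EpCAM-. It ranked between 95 and 604 among all genes of a library, and no groups overlapped. Inhbb (beta B; chromosome 1, 119415465 to 119422248) read 24.9 and 24.4, 36.9 and 36.4, 4.42 and 4.14, and 9.15 and 9.75 FPKM in the same 4 groups. It was thus higher in both EpCAM+ groups than in either EpCAM- group.

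Bmp4 (chromosome 14, 46383520 to 46390669) was high in a single group. It read 0.377 and 0.446 FPKM in monoculture EpCAM+, 0.648 and 0.665 in coculture EpCAM+, 31.7 and 31.8 in monoculture EpCAM-, and 0.126 and 0.0368 in coculture EpCAM-, so monoculture EpCAM- stood far above the rest. Bmp2 (chromosome 2, 133552159 to 133562885) was seen in EpCAM+ cells only, at 0.218 and 0.230 FPKM in monoculture and 0.943 and 0.709 in coculture, and was listed at 0 in all 4 EpCAM- libraries. Bmp7 (chromosome 2, 172868012 to 172940321) stayed at 0.0602 to 0.0951 FPKM in EpCAM+ libraries, whose cultures overlapped, and was also listed at 0 in EpCAM- libraries. Neither reached 1 FPKM in 2 libraries, so neither was tested, and 8 of the 10 genes were.

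Among the antagonists, Fst (chromosome 13, 114452290 to 114458951) followed culture and Grem1 (chromosome 2, 113746164 to 113758646) followed fraction. Fst read 12.3 and 11.5 FPKM in monoculture EpCAM+, 3.70 and 3.73 in coculture EpCAM+, 22.1 and 22.7 in monoculture EpCAM-, and 7.55 and 5.23 in coculture EpCAM-. Grem1 read 0.0648 and 0.0401 FPKM in monoculture EpCAM+, 0.557 and 0.474 in coculture EpCAM+, 16.6 and 17.6 in monoculture EpCAM-, and 22.2 and 22.5 in coculture EpCAM-. The coculture EpCAM- libraries differed more in Fst than those of any other group (6.39 ± 1.64 FPKM, SD, n = 2). Grem1 in coculture EpCAM+ stood at 2.49% and 2.12% of its coculture EpCAM- level, where the mesenchymal markers ranged from 1.36% to 2.31%.

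The BMP-responsive genes were expressed in every library. Id1 (chromosome 2, 152736251 to 152737410) read 101 and 102 FPKM in monoculture EpCAM+, 78.1 and 76.9 in coculture EpCAM+, 131 and 129 in monoculture EpCAM-, and 58.2 and 56.8 in coculture EpCAM-. Id3 (chromosome 4, 136143497 to 136145755) read 228.6 and 228.7, 192 and 194, 225 and 223, and 143 and 139.6 FPKM in the same groups. Smad6 (chromosome 9, 63953076 to 64022059) read 5.25 and 5.03, 6.35 and 6.04, 44.6 and 43.1, and 10.5 and 9.39 FPKM. Id1 and Id3 were lower in the coculture libraries of either fraction. For Id1 and Smad6 the highest group was monoculture EpCAM-, the group where Bmp4 was high. Id3 read highest in monoculture EpCAM+.

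In the annotation, the genes Bmp4, Inhba and Fst overlap genes on the opposite strand. Whether reads were counted by strand is not given in the sources used here, so reads of these partners cannot be told apart from theirs. Of the partners, Gm15217, which overlaps Bmp4, was in the files, at no more than 0.27 FPKM.

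**Figure D1:**
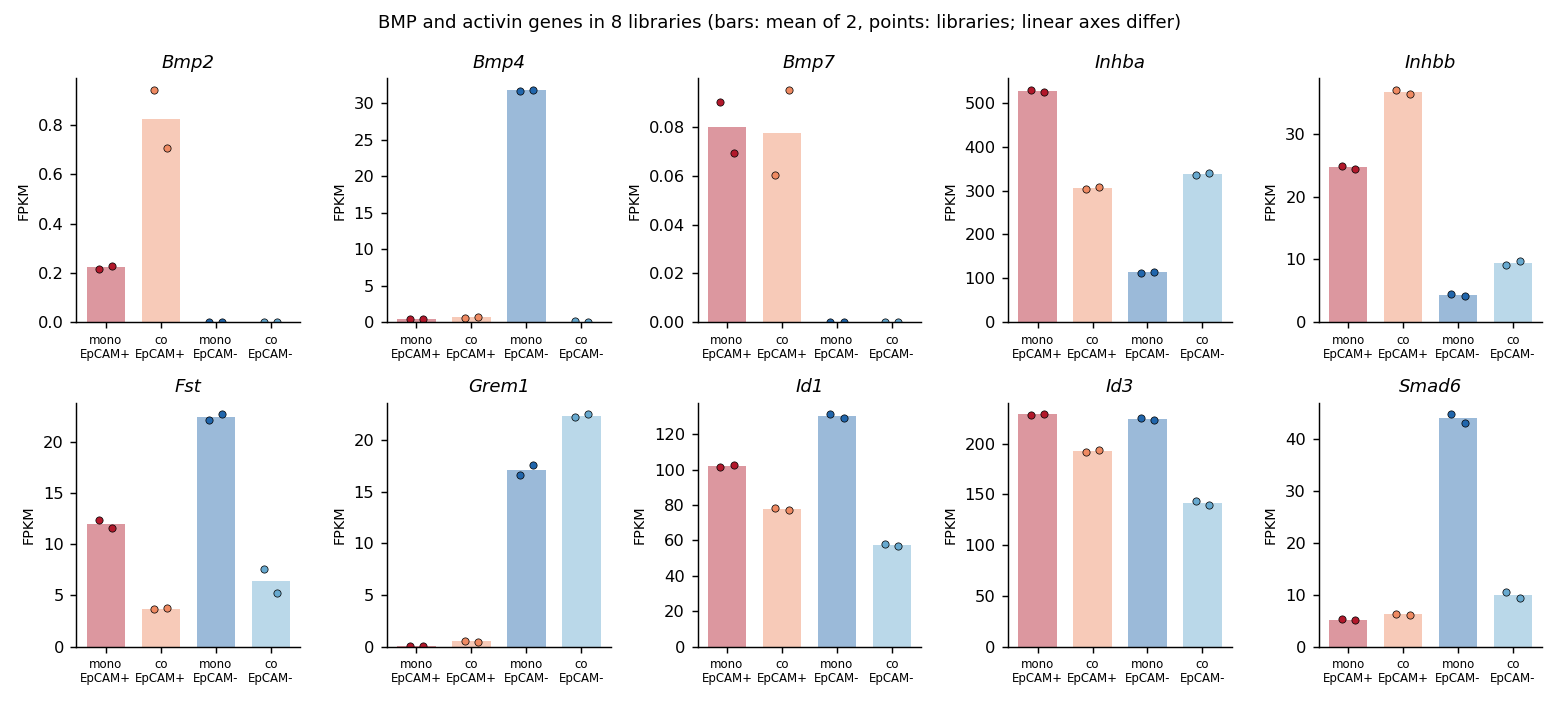
FPKM (linear axes from 0, one scale per gene) of the 10 genes in monoculture (mono) EpCAM+, coculture (co) EpCAM+, monoculture EpCAM- and coculture EpCAM- cells; bars are means of 2 libraries and points are libraries. Bmp4 stands at 31.8 FPKM in monoculture EpCAM- and under 1 elsewhere, and Inhba is lowest in that same group at 114 FPKM.

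Within EpCAM- cells, monoculture was set against coculture to ask how this fraction differs between the cultures. In monoculture Bmp4, Smad6, Fst, Id1 and Id3 were higher and Inhba, Inhbb and Grem1 lower. Bmp4 averaged 31.8 ± 0.0656 FPKM in monoculture and 0.0816 ± 0.0634 in coculture (SD, n = 2 each), and its log2 fold change was 4.92 (limma, SE 0.0565, adjusted p = 1.17e-09). That was the 2nd highest of the 12012 genes tested. Bmp4 reached 1 FPKM in monoculture EpCAM- libraries alone, so the filter on low values forced a difference and nothing is read from this rank. The 4.92 and all further log2 fold changes are of FPKM + 1, which understates the change of low genes such as Bmp4 in coculture. With 0.1 in place of 1 the value was 7.50.

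Smad6 averaged 43.9 ± 1.11 FPKM in monoculture EpCAM- and 9.95 ± 0.782 in coculture, 4.41 times as high (log2 fold change 2.04, SE 0.0545, adjusted p = 5.47e-08). Id1 averaged 130.1 ± 1.57 and 57.5 ± 1.03 FPKM, 2.26 times as high (1.16, SE 0.0221, adjusted p = 1.10e-08). Id3 averaged 224 ± 1.15 and 141 ± 2.41 FPKM, 1.59 times as high, short of 2-fold (0.66, SE 0.0189, adjusted p = 7.76e-08). The 3 BMP-responsive genes were thus higher by 0.66 to 2.04 in monoculture EpCAM- cells, where Bmp4 was higher too. In EpCAM+ cells, with Bmp4 under 1 FPKM, Id1 (0.39) and Id3 (0.25) were also higher in monoculture. Whether these genes follow Bmp4 was not tested.

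The activin beta subunit genes moved the other way, and their antagonist Fst did not. Inhba fell to 114 ± 2.43 FPKM in monoculture EpCAM-, against 337.5 ± 2.57 in coculture (log2 fold change -1.56, SE 0.021, adjusted p = 2.17e-09), and Inhbb to 4.28 ± 0.197, against 9.45 ± 0.43 (-0.99, SE 0.0419, adjusted p = 5.96e-07). The antagonist Fst rose to 22.4 ± 0.386 FPKM, against 6.39 ± 1.64 (1.68, SE 0.125, adjusted p = 1.24e-05), and its value lay between 1.45 and 1.91 when either coculture EpCAM- library was left out. Grem1 fell to 17.1 ± 0.665 FPKM in monoculture, against 22.4 ± 0.172 (-0.37, SE 0.0499, adjusted p = 3.54e-04). In this comparison 8 of 8 tested genes passed an adjusted p of 0.05, as did 62.7% of all genes. At 2-fold or more as well, 4 were higher and 1 lower, where the shares over all genes were 2.56% and 1.96%. Bmp4 passed the filter on low values through monoculture EpCAM- alone, so it had to differ here and nothing is read from these counts. Grem1 passed it through both cultures of EpCAM- cells, which forces no difference between them.

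Within EpCAM+ cells, monoculture against coculture gave other values for most of the 8 genes. Fst was 3.21 times as high in monoculture, at 11.9 ± 0.562 FPKM against 3.71 ± 0.0164 in coculture (log2 fold change 1.45, SE 0.125, adjusted p = 5.90e-05), the 7th highest of all genes tested. Inhba was 1.72 times as high, at 527 ± 3.21 FPKM against 306 ± 4.23 (0.78, SE 0.021, adjusted p = 1.63e-07). Inhbb was lower, at 24.6 ± 0.387 FPKM against 36.7 ± 0.404 (-0.55, SE 0.0419, adjusted p = 3.13e-05). The beta A and beta B messages therefore went in opposite directions in EpCAM+ cells, whereas both were lower in monoculture EpCAM- cells.

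Id1 rose to 102 ± 0.677 FPKM in monoculture EpCAM+, against 77.5 ± 0.87 in coculture (0.39, SE 0.0221, adjusted p = 7.00e-06), and Id3 to 228.7 ± 0.101, against 193 ± 1.49 (0.25, SE 0.0189, adjusted p = 3.45e-05). Smad6 fell slightly, to 5.14 ± 0.151 FPKM against 6.19 ± 0.225 (-0.23, SE 0.0545, adjusted p = 0.00981). It no longer passed once monoculture EpCAM+ replicate 2 (adjusted p = 0.0559) or coculture EpCAM+ replicate 1 (0.0604) was left out or under quantile normalization (0.276). Its adjusted p ranged from 0.00382 to 0.276 over the alternatives.

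Bmp4 and Grem1 were under 1 FPKM in both EpCAM+ groups. Bmp4 averaged 0.412 ± 0.0485 FPKM in monoculture and 0.656 ± 0.0119 in coculture (-0.23, SE 0.0565, adjusted p = 0.0109), and it no longer passed once monoculture EpCAM+ replicate 1 (adjusted p = 0.0629) or coculture EpCAM+ replicate 2 (0.0504) was left out or at a pseudocount of 0.1 (0.0624). Quantile normalization brought it to 0.0026 (adjusted p = 0.979), and the adjusted p over the alternatives ranged from 0.00542 to that value. Grem1 averaged 0.0524 ± 0.0174 and 0.515 ± 0.0585 FPKM (-0.53, SE 0.0499, adjusted p = 1.03e-04). With the median share of EpCAM- levels subtracted from each EpCAM+ library, the Grem1 change was -0.14 (adjusted p = 0.064, the highest of a range from 8.22e-06). All 8 genes passed an adjusted p of 0.05 against 51.4% of all genes, and at 2-fold or more 1 was higher and 0 lower against 0.266% and 1.67% of all genes.

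**Figure D2:**
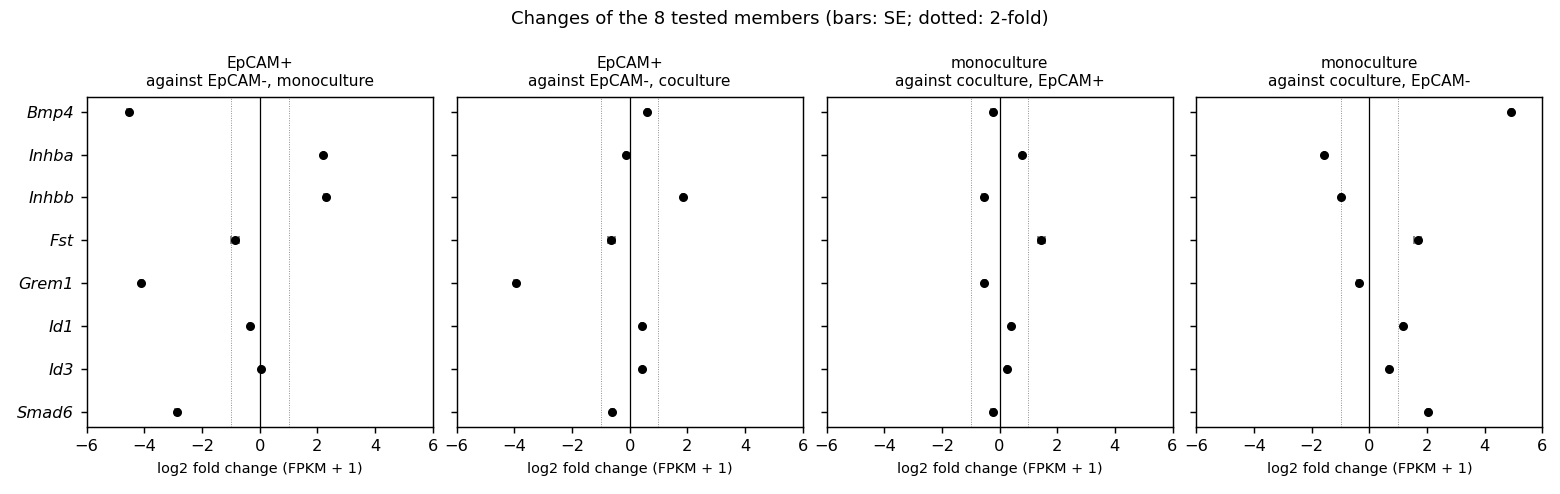
Log2 fold changes of FPKM + 1 (horizontal axis) with SE (limma, 2 libraries a group) for the 8 tested genes in 4 comparisons; dotted lines mark 2-fold, and most SE bars are narrower than the points. For monoculture against coculture, Bmp4 lies at -0.23 in EpCAM+ cells and at 4.92 in EpCAM- cells.

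The interaction is the monoculture against coculture difference of EpCAM+ cells minus that of EpCAM- cells, and tests whether the fractions differ in it. It passed for 6 of the 8 genes, against 65.2% of all genes. Bmp4 had -5.15 (SE 0.08, adjusted p = 6.32e-09), the 2nd lowest of all genes tested. The filter on low values forced a difference for Bmp4, so nothing is read from that rank. Inhba had 2.34 (SE 0.0297, adjusted p = 3.13e-09), the 29th highest. For Inhba the fractions moved in opposite directions, 0.78 in EpCAM+ and -1.56 in EpCAM- cells.

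Smad6 had an interaction of -2.26 (SE 0.0771, adjusted p = 3.08e-07), Id1 of -0.77 (SE 0.0313, adjusted p = 6.57e-07) and Id3 of -0.42 (SE 0.0268, adjusted p = 6.77e-06), so for each the monoculture against coculture difference was lower in EpCAM+ than in EpCAM- cells; Smad6 was -0.23 in EpCAM+ cells and 2.04 in EpCAM- cells. Inhbb had 0.43 (SE 0.0592, adjusted p = 4.11e-04), a smaller drop in EpCAM+ cells. Fst did not pass, at -0.23 (SE 0.176, adjusted p = 0.291), but passed without coculture EpCAM- replicate 1 (-0.45, adjusted p = 0.00148) and stood at 0.0031 (adjusted p = 0.973) without coculture EpCAM- replicate 2. Grem1 did not pass either, at -0.16 (SE 0.0706, adjusted p = 0.0852). It passed at pseudocounts of 0.1 (-1.63, adjusted p = 6.34e-05) and 0.5 (-0.50, adjusted p = 0.00173), and in the other direction with the share of EpCAM- levels subtracted (0.23, adjusted p = 0.0253), so no direction is given for it. At 2-fold or more 1 gene was higher (Inhba) and 2 lower (Bmp4, Smad6), against 2.43% and 5.66% of all genes. Bmp4 passed the filter on low values through monoculture EpCAM- alone, so it had to differ and nothing is read from the interaction counts.

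EpCAM+ cells were then set against EpCAM- cells of the same culture, to ask how the sorted fractions differ. In bulk RNA, fewer cells that express a gene and less of its RNA per cell cannot be told apart. In both cultures Inhbb was higher and Grem1 and Fst lower in EpCAM+ cells; Bmp4, Inhba and Id1 changed sides between the cultures. In monoculture, Inhba was 4.63 times as high in EpCAM+ as in EpCAM- cells (log2 fold change 2.20, SE 0.021, adjusted p = 2.01e-11) and Inhbb 5.76 times (2.28, SE 0.0419, adjusted p = 5.88e-10). Bmp4 (-4.54, SE 0.0565, adjusted p = 7.42e-11), Grem1 (-4.10, SE 0.0499, adjusted p = 6.51e-11) and Smad6 (-2.87, SE 0.0545, adjusted p = 7.15e-10) were more than 2-fold lower in EpCAM+. Fst (-0.86, SE 0.125, adjusted p = 2.49e-04) and Id1 (-0.35, SE 0.0221, adjusted p = 1.20e-06) were lower by less. Id3 did not pass at 0.03 (SE 0.0189, adjusted p = 0.192). Of the 8 genes, 7 passed against 87.9% of all genes, and at 2-fold or more 2 were higher and 3 lower against 15.5% and 12.6% of all genes. Bmp4 and Grem1 passed the filter on low values through EpCAM- libraries alone, so both had to be lower and nothing is read from these counts.

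In coculture, Inhbb was 3.88 times as high in EpCAM+ as in EpCAM- cells (1.85, SE 0.0419, adjusted p = 2.22e-09) and Grem1 lower (-3.95, SE 0.0499, adjusted p = 8.90e-11). The other differences were under 2-fold: Bmp4 0.62 (adjusted p = 1.41e-05), Id3 0.44 (adjusted p = 1.09e-07) and Id1 0.43 (adjusted p = 3.79e-07) higher, and Fst -0.63 (adjusted p = 0.00158), Smad6 -0.60 (adjusted p = 1.26e-05) and Inhba -0.14 (adjusted p = 2.84e-04) lower in EpCAM+. Fst lay at -0.40 without coculture EpCAM- replicate 1 and at -0.86 without replicate 2. Median-of-ratios scaling left Id1 at 0.14, Id3 at 0.15 and Inhba at -0.44, and Bmp4, under 1 FPKM in both groups, stood at 0.33 by quantiles and 2.10 at a pseudocount of 0.1. All 8 passed, against 87.2% of all genes, and at 2-fold or more 1 was higher and 1 lower, against 16.5% and 10.1%. The 1 lower was Grem1, which had to be lower by the same filter, so nothing is read from these counts either. The median log2 fold change over all genes was 0.26 in coculture and 0.23 in monoculture. On chromosome 4, which carries Id3, the medians were 0.55 and 0.55. At least 2-fold, 1976 genes were higher and 1212 lower in coculture, and 1860 higher and 1512 lower in monoculture. Median-of-ratios scaling moved the median over all genes by -0.26 and -0.22 and gave 1482 higher and 1505 lower in coculture and 1431 and 1831 in monoculture; under it Id3 in monoculture turned to -0.23 (adjusted p = 5.38e-06). Over the 20 alternatives the adjusted p of Id3 ran from that value to 0.375, and Id3 in monoculture passed in 1 of them.

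Set against each other within a library, the Inhba and Fst messages were furthest apart in coculture EpCAM+ cells. Inhba over Fst was 42.9 and 45.5 in monoculture EpCAM+ and 81.8 and 82.9 in coculture EpCAM+. In EpCAM- cells it was 5.07 and 5.10 in monoculture and 44.5 and 64.9 in coculture. No monoculture library overlapped a coculture library of its fraction, and monoculture EpCAM- stood lowest of the groups. Inhba over Inhbb was 21.2 and 21.5 in monoculture EpCAM+, 8.20 and 8.49 in coculture EpCAM+, 25.4 and 27.9 in monoculture EpCAM-, and 36.7 and 34.8 in coculture EpCAM-. Fst was not the only activin binder: Fstl3, a follistatin-like activin binder, read above Fst in every library. Fstl3 over Fst was 1.43 and 1.57 in monoculture EpCAM+ and 3.14 and 3.27 in coculture EpCAM+. In EpCAM- cells it was 1.56 and 1.46 in monoculture and 6.97 and 9.75 in coculture. The ratios were not tested.

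**Figure D3:**
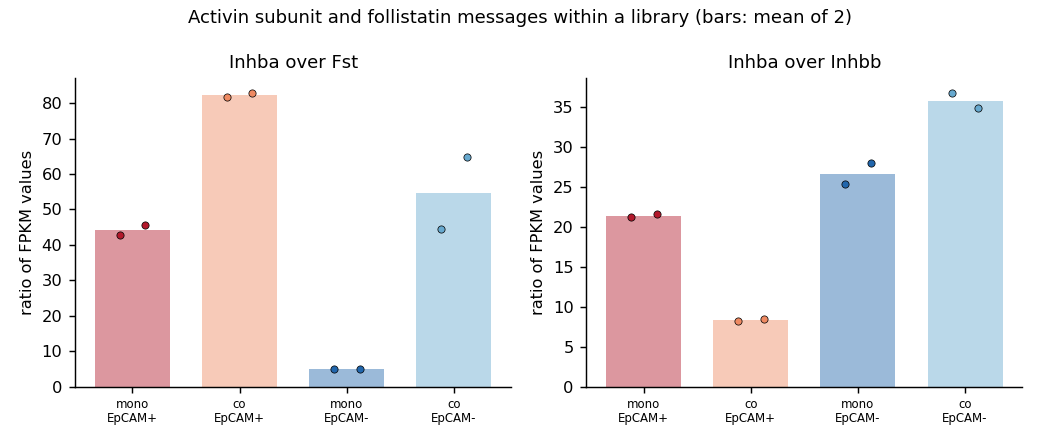
Ratios of FPKM values within a library (vertical axes, linear from 0) in monoculture (mono) and coculture (co) cells of both fractions; bars are means of 2 libraries and points are libraries. Inhba over Fst is lowest in monoculture EpCAM- (5.07 and 5.10) and Inhba over Inhbb in coculture EpCAM+ (8.20 and 8.49).

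A wider list of 73 further genes of the pathway, all in the files, places the 10 among their partners, and 46 of them were tested. Between monoculture and coculture EpCAM- cells, 23 of the 46 were higher and 14 lower (median log2 fold change 0.18, against 0.00 over all genes), and 5 were higher and 0 lower by at least 2-fold. Called were 80.4% of the 46, against 62.7% of all genes, and over all genes 2.56% were higher and 1.96% lower by at least 2-fold. Acvrl1, Lefty1 and Smad9 passed the filter through monoculture EpCAM- libraries alone, so they had to differ and no support is drawn from the counts. Those 5 were the targets Id4, Atoh8 and Id2, the ligand Bmp6 and the receptor Acvrl1. Atoh8, a transcription factor gene that BMP signalling induces, averaged 32.3 ± 0.179 FPKM in monoculture and 5.22 ± 0.039 in coculture (2.42, SE 0.0511, adjusted p = 1.82e-08). Id4 averaged 11.4 ± 0.77 and 0.899 ± 0.0661 (2.71, SE 0.0645, adjusted p = 3.15e-08) and Id2 46.6 ± 1.54 and 21.5 ± 0.726 (1.08, SE 0.0435, adjusted p = 4.47e-07). All measured Id genes were therefore higher in monoculture EpCAM- cells. The targets did not all go this way: of the 7 tested in the wider list, 4 were higher and 2 lower. Those lower were Runx2 (-0.48, adjusted p = 8.56e-06) and Hey1 (-0.32, adjusted p = 1.17e-04), and Msx1 was not called (0.19, adjusted p = 0.153).

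The BMP ligand gene Bmp6 averaged 0.0173 ± 0.000479 and 0.0572 ± 0.0503 FPKM in monoculture and coculture EpCAM+ cells. In EpCAM- cells it averaged 7.81 ± 0.352 FPKM in monoculture and 1.61 ± 0.152 in coculture (1.76, SE 0.0635, adjusted p = 2.51e-07). Acvrl1, which encodes the receptor ALK1, averaged 1.87 ± 0.168 and 0.169 ± 0.0306 FPKM (1.30, SE 0.059, adjusted p = 8.76e-07). Of the 8 tested antagonists of the wider list, 6 were higher and 2 lower in monoculture EpCAM- cells, with none at 2-fold on the scale of FPKM + 1. Crim1, a transmembrane BMP-binding protein, averaged 126.9 ± 0.975 against 63 ± 0.557 FPKM (log2 fold change 0.998), a ratio of 2.01. Chrd, the secreted BMP antagonist chordin, had the larger ratio of FPKM at 2.47, which the added 1 brings to a log2 fold change of 0.81. The follistatin-like activin binder Fstl3 went the other way from Fst, at 33.8 ± 0.934 FPKM in monoculture against 51.8 ± 1.15 in coculture (-0.60, SE 0.0353, adjusted p = 3.36e-06). Of 11 SMADs and SMAD regulators, 3 were higher and 4 lower, and Smad3 was at 18.2 ± 0.517 against 27.3 ± 0.0938 FPKM (-0.56, SE 0.0272, adjusted p = 1.23e-06).

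In EpCAM+ cells, 11 of the 46 were higher and 9 lower in monoculture (median -0.03, against -0.06 over all genes), with 0 higher and 1 lower by at least 2-fold. The 43.5% called lay below the 51.4% of all genes, of which 0.266% were higher and 1.67% lower by at least 2-fold. That 1 was Fstl1, a follistatin-like glycoprotein gene, at 1.09 ± 0.0822 FPKM against 8.12 ± 0.311 (-2.13, SE 0.0342, adjusted p = 1.38e-08), in cells whose mesenchymal markers summed to 22.1 to 22.3 against 229 to 229.7 FPKM. With the share of EpCAM- levels subtracted the Fstl1 change was -0.94 (adjusted p = 1.55e-05), under 2-fold. Atoh8 stood at 0.0805 ± 0.0471 and 0.109 ± 0.0368 FPKM in monoculture and coculture EpCAM+ cells, so this target was near 0 in the fraction whose group means of the Id genes were 21.8 to 229 FPKM.

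**Figure D4:**
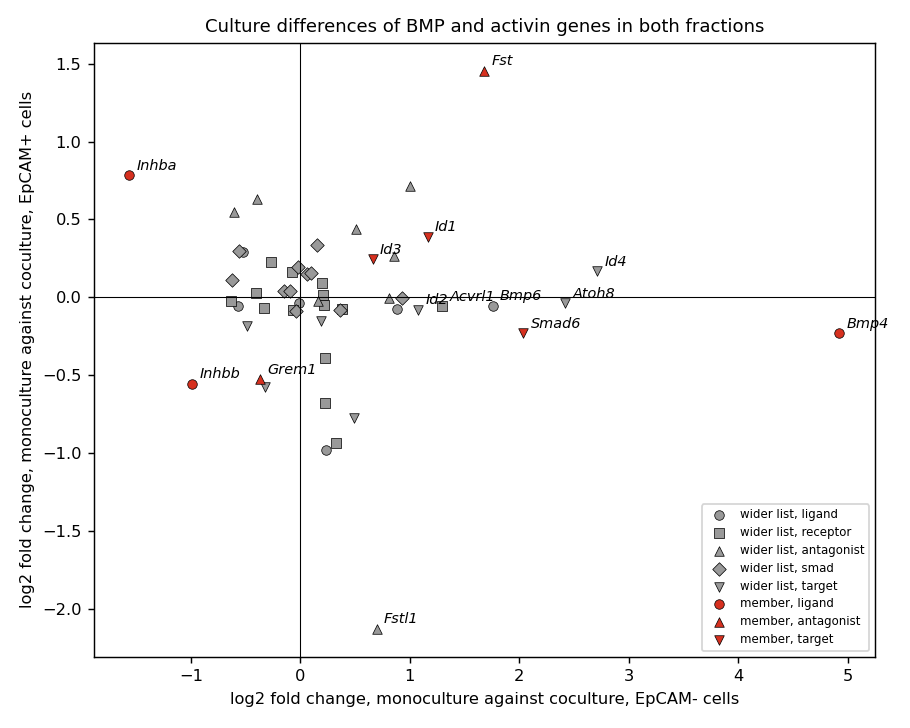
Log2 fold change of FPKM + 1, monoculture against coculture, in EpCAM- cells (horizontal) and EpCAM+ cells (vertical); red points are the 8 tested genes described here and grey points the 46 tested genes of the wider list, with shapes by role, and names for the red points and for grey points past 2-fold on either axis. Bmp4 lies far right at 4.92 and -0.23, Inhba alone of the red points at the upper left (-1.56 and 0.78), and Fst at the upper right (1.68 and 1.45).

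Between EpCAM+ and EpCAM- cells, 16 of the 46 were higher and 28 lower in coculture (median -0.38, against 0.26 over all genes), and 19 were higher and 27 lower in monoculture (median -0.46, against 0.23). That is 95.7% and 100% called, against 87.2% and 87.9% of all genes. Of the 46, 11 passed the filter on low values through EpCAM- libraries alone and 2 through EpCAM+ libraries alone, so these had to differ and nothing is read from the counts or medians. Of the genes named below, Bmpr1b, Tgfbr3, Atoh8 and Inha passed it through EpCAM- libraries alone and Dlx5 through EpCAM+ libraries alone. The filter fixed the direction of these, so their values are description only. At 2-fold or more, 7 of 8 antagonists were lower in EpCAM+ cells of coculture and 6 of 8 of monoculture, with 0 higher in either, where 10.1% and 12.6% of all genes were lower by as much. Chrd was the 1 of them that passed the filter through EpCAM- libraries alone. They were led by Fstl1 (-5.44 and -8.26) and included Htra1 (-3.62 and -2.59), a secreted protease gene, and the DAN family gene Nbl1 (-2.66 and -2.73). The antagonist gene Twsg1 went the other way, higher in EpCAM+ cells of both cultures (0.79 and 0.60). The list was chosen with earlier results known and 8 of its 16 antagonists were tested, so nothing is read from the antagonist counts either. Among the receptors, Eng, the endothelial co-receptor endoglin, was lower in EpCAM+ (-4.61 in coculture and -5.87 in monoculture), as were Bmpr1b (-2.18 and -1.92) and Tgfbr3 (-1.96 and -2.21), while the activin receptor gene Acvr1b was higher (1.69 and 1.07). Hey1 (6.26 and 6.01) and Dlx5 (4.33 and 3.06), transcription factor genes that BMP can induce in other cells, were higher in EpCAM+, and Atoh8 lower (-2.49 and -4.95). Inha, whose product joins a beta subunit to form inhibin, was 0.0257 ± 0.00666 FPKM in coculture EpCAM+ against 1.99 ± 0.182 in coculture EpCAM-, and was listed at 0 in both monoculture EpCAM+ libraries against 1.95 ± 0.108 in monoculture EpCAM-. Gdf15, a stress-induced ligand gene, was 11.9 ± 1.29 against 42.9 ± 1.59 FPKM in coculture and 5.58 ± 0.99 against 50.5 ± 1.22 in monoculture.

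For the interaction, 17 of the 46 were higher and 22 lower, and 2 and 9 by at least 2-fold. This is 84.8% called against 65.2% of all genes, of which 2.43% were higher and 5.66% lower by at least 2-fold, with the same limit on genes that passed through a single group or fraction. Past 2-fold were Bmp6 (-1.81), Acvrl1 (-1.35), Id4 (-2.54) and Atoh8 (-2.46), each higher in monoculture than coculture EpCAM- cells and not called in EpCAM+ cells (-0.06, -0.06, 0.17 and -0.04 in that order). Fstl1 (-2.82), Eng (-1.26) and Gdf15 (-1.21) were also below, and Fstl3 above (1.15). With the share of EpCAM- levels subtracted, Fstl1 stood at -1.63 and Eng at -0.61. Bmp6, Acvrl1 and Atoh8 averaged at most 0.109 FPKM in the EpCAM+ groups, where little change could show on this scale. Between cultures of EpCAM+ cells, Id4 passed by the median of ratios (0.22, adjusted p = 0.0222) and quantiles (0.21, adjusted p = 0.0273). It also passed there with the replicate block (0.17, adjusted p = 0.049).

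The genes whose 4 group means, centred on their own mean, came closest to each of the 8 were looked up as a description, by the root mean square difference on the log2 scale. For Bmp4 they were Prelp (0.34) and Igfbp2 (0.367), and no gene came within 0.25. For Fst they were Klhdc8a (0.26) and Foxf1 (0.377), also with none within 0.25, and for Inhba Wnt11 (0.198) and Sorcs2 (0.215), with 4 genes within it. The pattern of Smad6 was met more closely, by Deptor (0.0515) and Prex2 (0.101), that of Inhbb by Aig1 (0.0548) and Sulf2 (0.0891), and that of Grem1 by Bcat1 (0.0546) and Lsp1 (0.0689). Id1 was closest to Gstp2 (0.117) and Gclm (0.136), and Id3, whose values vary little, to Trim2 (0.0265) and Garnl3 (0.0428) among 1414 genes within 0.25.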

How the data were processed

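Each of the 8 files holds 1 library, with gene-level FPKM computed by the authors, per the file headers. Per the submitters' processing notes the tools were FastQC, cutadapt, HISAT2, SAMtools, HTSeq and edgeR, on build mm10; which annotation was counted and which tool wrote FPKM is not given in the sources used here. Positions are from GENCODE M21 (GRCm38). Of 24421 genes, the 12012 that reached 1 FPKM in 2 or more libraries were tested on log2(FPKM + 1) with limma 3.58.1 in R 4.3.3. The fit used cell means of 4 groups over 8 libraries (4 residual degrees of freedom, eBayes with trend), two-sided, with Benjamini-Hochberg adjustment over the genes tested. On simulated data with known changes it found the changed genes, but the share of false calls was above the adjusted p threshold, so calls near it are less certain than the threshold says. A gene passed at an adjusted p under 0.05, and changed at least 2-fold where its log2 fold change also reached 1 in size.

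The 10 genes, the wider list and the markers were chosen with earlier results of these data known. Named are the 10 genes, of each role of the wider list up to 2 genes with the largest changes past 2-fold per comparison, and the 2 genes most alike to each; further wider-list genes were chosen after their values were seen. Correlations of the differences between replicates 1 and 2 ran from -0.0726 to 0.0406 between groups, so the numbers were not taken to pair libraries. No files were identical. Depth in reads could not be recovered, so no counting interval is given. Tables were made with Python 3.11.15 and pandas 2.3.3, and figures with matplotlib 3.10.9.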

Additional observations from a re-analysis of the deposited data

Results flagged for a closer look

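For 6 of the 10 genes the difference between the cultures was not the same in EpCAM+ and EpCAM- cells, by the test of the interaction (monoculture minus coculture in EpCAM+ less the same in EpCAM-, log2, limma). The values were -5.15 for Bmp4, 2.34 for Inhba, 0.43 for Inhbb, -0.77 for Id1, -0.42 for Id3 and -2.26 for Smad6. All 6 kept their direction and passed in each of 19 alternatives, while 65.2% of all genes passed the same test, so passing alone does not set these genes apart. Bmp4 passed the filter on low values through monoculture EpCAM- alone. It therefore had to differ, and no support is drawn from its value or its alternatives. Inhba was the 1 of the 6 with opposite changes of 0.78 and -1.56 past the threshold in both fractions and in every alternative. With 2 libraries a group no library could be tested as standing apart from its group.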

How the results depend on the processing

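Alternatives were pseudocounts of 0.1 and 0.5, no low-value filter or one at 5 FPKM, quantile, median-of-ratios and constant-sum scaling, eBayes without trend or robust, a replicate block, the 4 compared libraries alone, each library left out, and the other fraction's share subtracted. For the 8 tested genes, 40 results gave 779 values with the side of the threshold kept, 7 weaker, 3 stronger and 3 reversed. Reversed means a change of sign where the main fit or the alternative passed. A change of sign where neither passed was counted among the 779. The Fst interaction, -0.23 in the main fit and 0.0031 without coculture EpCAM- replicate 2, is such a case. The reversed were Id3 between fractions in monoculture (-0.23, median of ratios), Bmp4 between cultures in EpCAM+ (0.0026, quantiles) and the Grem1 interaction (0.233, share subtracted, adjusted p = 0.0253, in a range from 6.34e-05 to 0.223); of other named genes Bmpr1b was reversed in the interaction (-0.0935, pseudocount 0.1). The replicate block left the Bmp4 change in EpCAM- cells at 4.92 (adjusted p = 3.15e-08, in a range from 5.00e-11 to 2.31e-05) and changed no call of the 8 genes. At a pseudocount of 0.1, 2 of the 8 genes in place of 1 changed at least 2-fold between cultures in EpCAM+ cells. The counts over all genes were then 562 in place of 233 there, 910 in place of 543 in EpCAM- cells and 1613 in place of 972 for the interaction, as a smaller pseudocount widens the changes of low genes. The share of calls that were higher was 67.9% in coculture and 63.1% in monoculture between fractions, 32% between cultures in EpCAM+ cells and 39.9% for the interaction. By the median of ratios these shares were 49.9%, 50.3%, 45.7% and 44.2%, and by quantiles 50.8%, 55.2%, 54.7% and 53.4%; quantiles moved the median of the interaction over all genes by 0.11. Depth in reads is unknown, which limits what values under 1 FPKM can show.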

Other observations

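Several low messages of the pathway, chosen after their values were seen, were at or near 0 in EpCAM+ cells and higher in EpCAM- cells. Lefty1, a secreted inhibitor of Nodal signalling, was listed at 0 in monoculture EpCAM+ and averaged 0.0508 ± 0.0187 FPKM in coculture EpCAM+, 2.08 ± 0.218 in monoculture EpCAM- and 0.664 ± 0.074 in coculture EpCAM- cells. Chrd, the BMP antagonist chordin, averaged 2.62 ± 0.168 and 1.06 ± 0.0335 FPKM in monoculture and coculture EpCAM- cells. Smad9, which encodes a BMP-activated SMAD, averaged 2.26 ± 0.042 and 0.708 ± 0.0594 FPKM there. Nog, the BMP antagonist noggin, was listed at 0 in EpCAM+ libraries, read 0.58 ± 0.0139 and 0.0715 ± 0.0139 FPKM in monoculture and coculture EpCAM- cells, and was too low to be tested. Other genes of this kind did not share that order. Gdf6, a BMP family ligand gene, averaged 0.417 ± 0.134 FPKM in monoculture and 1.10 ± 0.0434 in coculture EpCAM- cells, Bmpr1b 2.82 ± 0.196 and 3.81 ± 0.135, and Inha 1.95 ± 0.108 and 1.99 ± 0.182.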
